A study of Mus musculus with 6 samples.

Results

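Transcripts of 10 genes known from mast cells, basophils and eosinophils were followed in bulk RNA of thymocytes from mice. Thymocytes are T cells in development, and they make up most of the thymus. The genes are Cpa3, Mcpt8, Fcer1a, Ms4a2, Gata2, Prss34, Hdc, Epx, Prg2 and Ccr3, chosen by symbol, and they are 10 of the 55536 genes of the count table. Libraries came from 3 wildtype mice (Il3ra+/+) and 3 mice labelled Il3ra-/-, with 1 library per mouse. The label Il3ra-/- stands for loss of the alpha chain of the interleukin-3 receptor. All mice were at steady state, and the labels give neither strain, age and sex nor the part of the gene that was deleted.

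Interleukin-3 is a growth factor of mast cells and basophils, and its relative interleukin-5 is the main growth factor of eosinophils. Each cytokine binds a private alpha chain, and the signal passes through a shared beta chain. Mast cells and basophils carry the high-affinity receptor for immunoglobulin E and store histamine and proteases in granules, whereas eosinophil granules hold cationic proteins and a peroxidase. All 3 cell types are scarce in a normal thymus. Several of the 10 genes are also read outside these lineages: Gata2 in blood progenitors, Cpa3 in early lymphoid progenitors, and Hdc in immature myeloid cells and neutrophils. In bulk RNA, more cells of a type and more RNA per cell cannot be told apart.

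Total counts ran from 55747682 to 82684219 per library, and 18690 genes had enough counts to be tested. Values are counts per 1000000 library counts (CPM), with library sizes scaled by the TMM method, as mean ± SD with n = 3 mice per genotype. The thymocyte markers were high in every library, with Cd4 at 941 to 1313 CPM and Cd8a at 1408 to 1756 CPM. Of 8 such markers 6 were lower in the labelled knockout without overlap, where 20.3% of all tested genes did not overlap in either direction. Of these 8 markers 0 passed edgeR's adjusted threshold (4 at an unadjusted p under 0.05, 0 called by DESeq2). Il3ra, the targeted gene, had 465, 376 and 399 counts in wildtype replicates 1 to 3 and 481, 673 and 514 in the labelled knockout. Scaled for depth these were 7.80, 6.51 and 6.11 CPM against 7.95, 8.02 and 7.39 CPM, which overlapped (fold 1.14, edgeR adjusted p = 0.585). At the level of the whole gene Il3ra thus does not check the labels, and directions below are those of the libraries labelled knockout. Labelled knockout replicate 3 stood apart in granulocyte genes. All 8 genes of a neutrophil list were highest there, and their summed level was 420 CPM against 33.5 to 106 CPM in the other 5 libraries. Replicate 1 of each genotype stood apart by Xist (88078 and 128236 counts, against 8 to 57 elsewhere). Xist is the RNA of the inactive X chromosome, so replicate 1 of each genotype reads as female and the other libraries as male. Sex was not a covariate of the fit.

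Cpa3 was the only abundant gene of the 10, and most of the others were counted a few times per library. Per kilobase of exon, Cpa3 averaged 4.13 ± 1.80 CPM over the 6 libraries (SD, n = 6). Next came Prg2 at 0.290 ± 0.210, Hdc at 0.176 ± 0.0896, Prss34 at 0.111 ± 0.219 and Mcpt8 at 0.0785 ± 0.130 CPM per kilobase. Ccr3 averaged 0.0282 ± 0.0257 CPM per kilobase. Fcer1a, Epx, Ms4a2 and Gata2 averaged 0.0148, 0.0140, 0.0136 and 0.00970 CPM per kilobase. The lowest Cpa3 value, 2.18, lay above the highest value of Prg2, 0.652. From Prg2 down, neighbours in this order overlapped over the libraries, and the places of Prss34 and Mcpt8 rest on labelled knockout replicate 3. Without it (n = 5), Prss34 averaged 0.0223 and Mcpt8 0.0279 CPM per kilobase, beside 0.0268 for Ccr3. In wildtype alone Mcpt8 was at 0.0107 ± 0.00931 CPM per kilobase, below Ccr3 at 0.0170 ± 0.0166 and Prss34 at 0.0371 ± 0.0415. For scale, Kit, the receptor of stem cell factor, averaged 0.979 CPM per kilobase and Cd8a averaged 447.

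**Figure D1:**
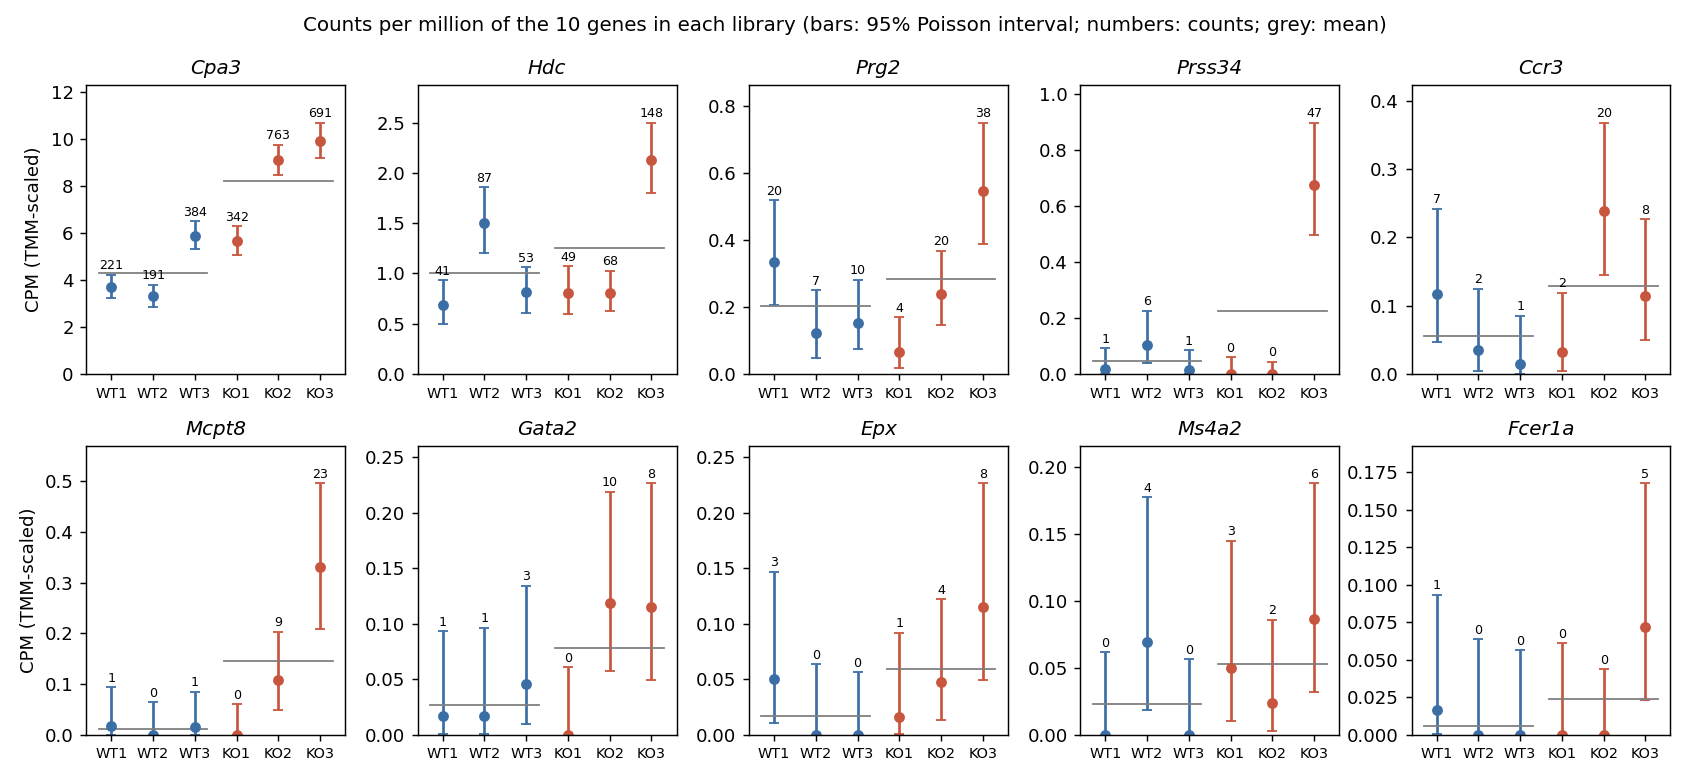
CPM (vertical axis, TMM-scaled, with its own range in each panel) of the 10 genes in wildtype replicates 1 to 3 (WT1 to WT3, blue) and labelled knockout replicates 1 to 3 (KO1 to KO3, red). Bars are 95% Poisson intervals, which cover counting error only, printed numbers are counts and grey lines are group means; Cpa3 reaches 9.93 CPM, and the highest point of 8 genes is KO3.

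Sequences just upstream of the start sites are shown for the gene with the most counts, Cpa3, and for the pair of basophil proteases whose counts lay mainly in labelled knockout replicate 3, Prss34 and Mcpt8. Each is the 250 bases before the RefSeq start site on GRCm38.p6, read 5′ to 3′ on the strand of the gene. Capitals mark AGATAA and TGATAA, the letters bound by GATA factors, and TGTGGT, the letters bound by RUNX factors, on either strand. A match on the opposite strand is printed as its reverse complement, and the marked stretches do not overlap.
Cpa3 (chr3:20242182-20242431, minus strand): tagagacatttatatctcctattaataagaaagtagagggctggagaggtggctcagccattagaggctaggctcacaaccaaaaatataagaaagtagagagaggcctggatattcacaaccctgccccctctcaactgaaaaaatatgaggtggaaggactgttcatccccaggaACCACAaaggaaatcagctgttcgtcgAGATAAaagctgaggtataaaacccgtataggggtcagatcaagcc
Prss34 (chr17:25298144-25298393, plus strand): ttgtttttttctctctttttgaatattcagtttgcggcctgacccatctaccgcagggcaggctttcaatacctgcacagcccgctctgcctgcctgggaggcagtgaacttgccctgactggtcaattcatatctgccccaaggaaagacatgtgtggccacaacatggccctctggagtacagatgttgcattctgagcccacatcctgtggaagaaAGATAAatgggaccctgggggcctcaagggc
Mcpt8 (chr14:56085198-56085447, minus strand): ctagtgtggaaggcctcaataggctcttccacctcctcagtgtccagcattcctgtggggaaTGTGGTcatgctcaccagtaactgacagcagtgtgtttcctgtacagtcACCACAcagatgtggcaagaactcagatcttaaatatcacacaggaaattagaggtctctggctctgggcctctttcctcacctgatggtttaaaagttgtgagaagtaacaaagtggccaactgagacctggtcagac

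Counted back from the start site, AGATAA lay at -46 to -41 in Cpa3 and at -31 to -26 in Prss34. TGTGGT lay at -73 to -68 on the opposite strand in Cpa3, and in Mcpt8 at -188 to -183 and, on the opposite strand, at -139 to -134. RefSeq windows were found for 9 of the 10 genes, all but Prg2, and Gata2 had 2 windows. AGATAA was in the windows of 5 of the 9 (Ccr3, Cpa3, Fcer1a, Ms4a2 and Prss34), against 9.99% of all 32851 windows of this length. Ms4a2 held it 3 times. TGTGGT was in 3 of the 9 (Cpa3, Fcer1a and Mcpt8), against 14.0% of all windows, and TGATAA was in 0 of the 9, against 7.94%. These are matches of letters and were not measured as binding.

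Cpa3 encodes carboxypeptidase A3, a protease of mast cell and basophil granules (ENSMUSG00000001865, chromosome 3, 20215620 to 20242181, minus strand). Its mean was higher in the libraries labelled knockout, but it did not pass the test across all genes. Cpa3 had 221, 191 and 384 counts in wildtype replicates 1 to 3 (3.71, 3.31 and 5.88 CPM). In labelled knockout replicates 1 to 3 it had 342, 763 and 691 counts (5.65, 9.09 and 9.93 CPM). Replicates 2 and 3 of the labelled knockout lay above every wildtype library, while its replicate 1 lay between wildtype replicates 1 and 3, so the genotypes overlapped. The means were 4.30 ± 1.39 and 8.22 ± 2.27 CPM, a fold of 1.91 (95% interval 1.28 to 2.85), with an adjusted p of 0.171 by edgeR's quasi-likelihood test (Benjamini-Hochberg; unadjusted p = 0.00433). Replicates differed by far more than counting error: chi-square per degree of freedom, which is about 1 when only counting error is present, was 27.7 in wildtype and 39.4 in the labelled knockout. Leaving out each library in turn gave log2 folds of 0.78 to 1.23 and edgeR adjusted p of 0.0766 to 0.650. Replicate 1 of each genotype, high in Xist, had 3.71 and 5.65 CPM. Among the libraries low in Xist, wildtype had 3.31 and 5.88 CPM and the labelled knockout 9.09 and 9.93 CPM. Without both libraries numbered 1, chosen after seeing the data, the log2 fold was 1.05 (edgeR adjusted p = 0.0508). The part of sex in these values was not tested. DESeq2 (adjusted p = 0.00847) and edgeR without the low-count filter (adjusted p = 0.000198) put Cpa3 past the threshold.

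Of the 10 genes, 3 (Cpa3, Hdc and Prg2) could be tested, and 0 of these 3 passed edgeR's adjusted threshold, where 0.091% of all tested genes passed in either direction and 0.0161% passed as higher. At an unadjusted p under 0.05, 1 of the 3 (Cpa3) was higher, against 8.01% of all tested genes. DESeq2 gave an adjusted p to 1 of the 10, Cpa3, and called it, against 2.95% of the genes to which it gave one called higher. Without the low-count filter edgeR called 2 of the 10 higher, Cpa3 and Mcpt8, against 1.6% of genes. The genotypes overlapped in all 10 genes, whereas they did not overlap in 20.3% of all tested genes. The 7 members that could not be tested are not among those genes, and no share was computed over genes as rare. The mean CPM was higher in the labelled knockout in 10 of 10 genes, where 51.2% of all tested genes were fitted higher. Pooled without labelled knockout replicate 3, the level was higher in 6 of 10. The share of all genes that were higher without that replicate was not computed.

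The genes whose profile over the 6 libraries was most like that of Cpa3 were Drc7, Erg and Atp8b4. Likeness was the root mean square difference of log2(CPM + 0.5) after centring, taken over 11918 protein-coding genes, and Drc7, a gene of the ciliary dynein regulatory complex, stood at 0.17 and Erg and Atp8b4 at 0.22. Erg encodes an ETS transcription factor and Atp8b4 a phospholipid transporter subunit. Drc7 had 0.386, 0.398 and 0.659 CPM in wildtype replicates 1 to 3 and 0.876, 1.10 and 1.51 CPM in the labelled knockout. Kit, a gene of both mast cells and early thymocytes, ranked 5, with 6.59, 6.54 and 7.63 CPM in wildtype and 7.25, 11.5 and 12.8 CPM in the labelled knockout. As with Cpa3, labelled knockout replicate 1 did not exceed the highest wildtype library for Kit, whose fold of 1.52 had an edgeR adjusted p of 0.222. Because Cpa3 spans both lineages, the early thymocyte list is given beside it: 8 of 8 genes were detected, 8 of 8 were fitted higher and 0 of 8 passed edgeR's adjusted threshold, with 2 of 8 at an unadjusted p under 0.05, 0 called by DESeq2 and 2 (Il2ra and Kit) called without the low-count filter. Over all tested genes, 51.2% were fitted higher, and the shares higher at an unadjusted p under 0.05 and called higher without the filter were 8.01% and 1.6%. Its summed level was 332 to 377 CPM in wildtype and 379 to 428 CPM in the labelled knockout. The part of early thymocytes in the Cpa3 counts was not tested.

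**Figure D2:**
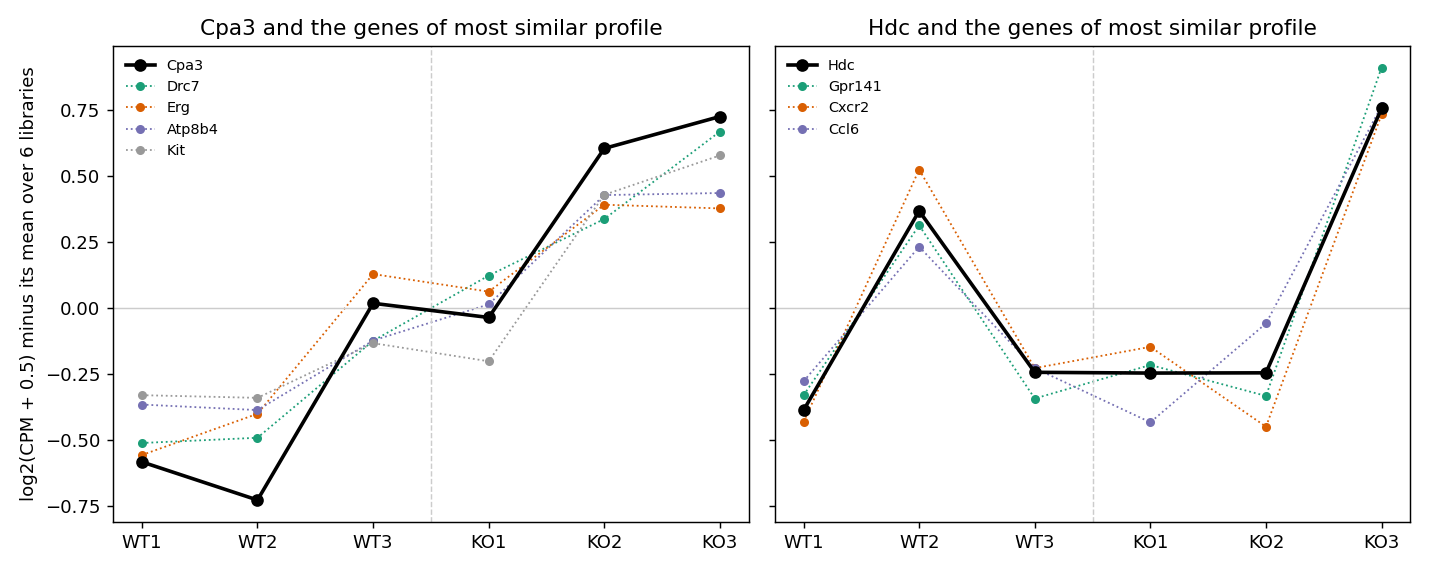
Log2(CPM + 0.5) minus its mean over the 6 libraries (vertical axis) for Cpa3, its 3 most similar genes and Kit (left) and for Hdc and its 3 most similar genes (right), with 1 point per library and lines that only join the points of a gene. Cpa3 is highest in KO2 and KO3 (9.09 and 9.93 CPM), whereas Hdc is highest in WT2 and KO3 (1.51 and 2.13 CPM).

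The basophil proteases were nearly absent from most libraries and concentrated in labelled knockout replicate 3. Mcpt8 encodes mast cell protease 8, which in the mouse marks basophils (ENSMUSG00000022157, chromosome 14, 56082166 to 56085273, minus strand). Mcpt8 had 1, 0 and 1 counts in wildtype replicates 1 to 3 and 0, 9 and 23 in labelled knockout replicates 1 to 3. Replicates 2 and 3 of the labelled knockout were above all wildtype libraries, and its replicate 1 was at 0. The pooled ratio was 13.7 (95% Clopper-Pearson interval of counting error 3.48 to 118), on 2 wildtype counts. Without labelled knockout replicate 3 the ratio was 5.69 (counting interval 1.18 to 54.1). An exact two-sided permutation test of the CPM values gave p = 0.4, and 3 against 3 cannot go below 0.1. Without the low-count filter, edgeR's adjusted p was 0.0377, and with the filter of at least 10 summed counts it was 0.279.

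Prss34 encodes mast cell protease 11, a tryptase-like enzyme of basophils (ENSMUSG00000056399, chromosome 17, 25298394 to 25300165, plus strand). Prss34 had 1, 6 and 1 counts in wildtype and 0, 0 and 47 in the labelled knockout. Labelled knockout replicate 3 reached 0.675 CPM (95% Poisson interval 0.496 to 0.898). Labelled knockout replicates 1 and 2 had 0 counts, which at 3 counts allow up to 0.0496 and 0.0357 CPM. The upper ends of their 95% Poisson intervals were 0.0609 and 0.0440 CPM. They are thus not resolved from wildtype replicates 1 and 3, at 1 count each (0.0168 and 0.0153 CPM). Labelled knockout replicate 3 held 85.5% of all Prss34 counts (Clopper-Pearson interval 73.3 to 93.5%) and 67.6% of all Mcpt8 counts (49.5 to 82.6%). Its share of all counts in the table was 18.3%, and its share of a tested gene's counts was 17.6% in the median. The pooled ratio of Prss34 was 5.01 (counting interval 2.35 to 12.3), and the exact permutation p was 1. Without wildtype replicate 2 the ratio was 13.7 (3.59 to 117), on 2 wildtype counts. All knockout-labelled counts of Prss34 came from labelled knockout replicate 3, so the ratio describes that mouse.

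**Figure D3:**
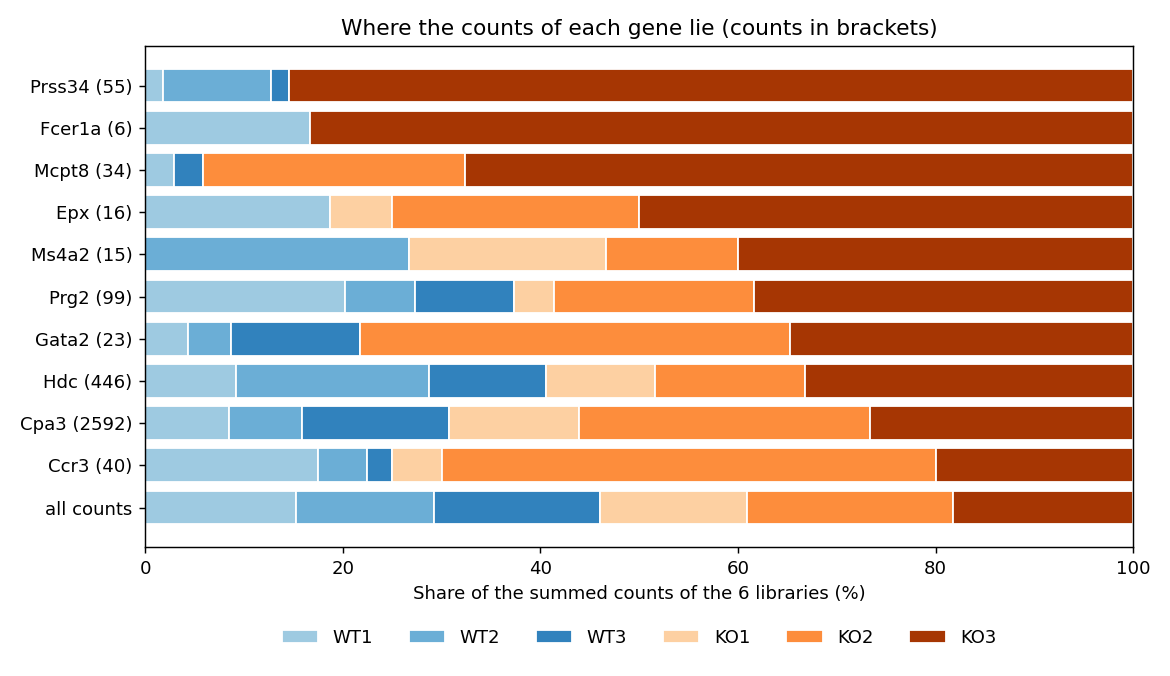
Share (%) of the summed counts of the 6 libraries that lies in each library, for each gene (total counts in brackets) and for all counts together. KO3 holds 85.5% of the Prss34 counts and 67.6% of the Mcpt8 counts against 18.3% of all counts.

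The chains of the receptor for immunoglobulin E that are restricted to these cells were close to the counting limit. Fcer1a, the alpha chain that binds the antibody (ENSMUSG00000005339, chromosome 1, 173221284 to 173227214, minus strand), had 1, 0 and 0 counts in wildtype and 0, 0 and 5 in the labelled knockout. Ms4a2, the beta chain that amplifies the signal (ENSMUSG00000024680, chromosome 19, 11615523 to 11623719, minus strand), had 0, 4 and 0 counts and 3, 2 and 6. Counts of both genes were highest in labelled knockout replicate 3, and neither gene had more than 6 counts in any library. Their ratios of 4.27 (counting interval 0.478 to 202) and 2.35 (0.696 to 10.1) included 1, so a genotype difference was not detectable at this depth. Without labelled knockout replicate 3, Fcer1a had 0 counts in the labelled knockout against 1 in wildtype, and the ratio of Ms4a2 was 1.58 (0.340 to 7.97). Its 4 wildtype counts all came from replicate 2. A count of 0, read as at most 3 counts, allows up to 0.0357 to 0.0519 CPM per library. Fcer1g, the gamma chain that many myeloid and lymphoid receptors share, was at 5.81 ± 1.43 and 6.68 ± 3.58 CPM (edgeR adjusted p = 0.858). Its transcripts were therefore present in every library while those of its partners were nearly absent.

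Hdc encodes histidine decarboxylase, which makes histamine (ENSMUSG00000027360, chromosome 2, 126593667 to 126619299, minus strand). Hdc had 41, 87 and 53 counts in wildtype (0.688, 1.51 and 0.812 CPM) and 49, 68 and 148 counts in the labelled knockout (0.809, 0.810 and 2.13 CPM). Labelled knockout replicate 3 was highest and wildtype replicate 2 second, and the other 4 libraries lay close together. The means were 1.002 ± 0.441 and 1.25 ± 0.760 CPM, a fold of 1.25 (95% interval 0.638 to 2.44; edgeR adjusted p = 0.778). Leaving out labelled knockout replicate 3 turned its log2 fold to -0.30. The genes of most similar profile were Gpr141, an orphan receptor, at a root mean square difference of 0.09, the chemokine receptor Cxcr2 at 0.11 and the chemokine Ccl6 at 0.13. Cxcr2 was at 1.35 CPM in replicate 2 of the wildtype and at 1.64 in replicate 3 of the labelled knockout, against 0.441 to 0.661 in the other 4 libraries. The 8 neutrophil genes summed to 71.3, 106 and 33.5 CPM in wildtype replicates 1 to 3 and to 73.7, 36.0 and 420 CPM in the labelled knockout. Wildtype replicate 2 and labelled knockout replicate 3 were thus the highest of their genotype for both Hdc and this list, of which 8 of 8 genes were detected. The part of neutrophils in the Hdc counts was not tested.

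Eosinophil genes were low throughout, and those with the most counts did not separate the genotypes. Prg2 encodes major basic protein, the main cationic protein of the eosinophil granule (ENSMUSG00000027073, chromosome 2, 84980461 to 84983632, plus strand). Prg2 had 20, 7 and 10 counts in wildtype (0.335, 0.121 and 0.153 CPM) and 4, 20 and 38 in the labelled knockout (0.0661, 0.238 and 0.546 CPM). The lowest and the highest library both came from the labelled knockout. The means were 0.203 ± 0.116 and 0.284 ± 0.243 CPM, a fold of 1.40 (95% interval 0.505 to 3.90; edgeR adjusted p = 0.777). Leaving out labelled knockout replicate 3 turned its log2 fold to -0.36. Epx, the eosinophil peroxidase (ENSMUSG00000052234, chromosome 11, 87864000 to 87875536, minus strand), had 3, 0 and 0 counts in wildtype and 1, 4 and 8 in the labelled knockout. Its ratio of 3.70 had a counting interval of 1.02 to 20.2, on 3 wildtype counts that all came from replicate 1, and an exact permutation p of 0.3. Without labelled knockout replicate 3 the ratio was 2.11 (counting interval 0.410 to 13.6).

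Ccr3 encodes the eotaxin receptor of eosinophils (ENSMUSG00000035448, chromosome 9, 124021972 to 124031689, plus strand). Ccr3 had 7, 2 and 1 counts in wildtype and 2, 20 and 8 in the labelled knockout. Here labelled knockout replicate 2, not replicate 3, was highest, at 0.238 CPM, and wildtype replicate 1 at 0.117 CPM was level with labelled knockout replicate 3 at 0.115 CPM. The ratio was 2.56 (counting interval 1.22 to 5.87). It fell to 1.40 (0.524 to 3.76) when labelled knockout replicate 2, which held 20 of the 30 counts, was left out, and was 5.75 (1.79 to 29.4) without wildtype replicate 1 and 2.78 (1.26 to 6.58) without labelled knockout replicate 3. The exact permutation p was 0.5.

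Gata2 encodes the transcription factor of the mast cell and basophil lineages that also acts in blood stem cells (ENSMUSG00000015053, chromosome 6, 88193891 to 88207032, plus strand). Gata2 had 1, 1 and 3 counts in wildtype and 0, 10 and 8 in the labelled knockout. Replicates 2 and 3 of the labelled knockout exceeded every wildtype library, and its replicate 1 was the lowest of all. The ratio was 3.07 (counting interval 1.10 to 10.6) and the exact permutation p was 0.4. Without labelled knockout replicate 3 the ratio was 2.53 (0.788 to 9.43), and without wildtype replicate 3 it was 4.94 (1.18 to 43.9). Its relative Gata1, which serves mast cells, eosinophils and red cells, had 0.686 ± 0.132 and 0.991 ± 0.177 CPM (edgeR adjusted p = 0.445). Of 14 progenitor genes 11 were tested, 9 were fitted higher (51.2% over all tested genes) and 0 passed edgeR's adjusted threshold. Tal1, Meis1 and Hoxa9 were untested and named after their values were seen. Tal1 had 7, 0 and 3 counts in wildtype and 3, 17 and 13 in the labelled knockout. Meis1 had 8, 2 and 6 against 3, 17 and 10, and Hoxa9 4, 2 and 7 against 9, 28 and 27. Hoxa9 (higher) and Myb (lower) did not overlap, 14.3% of the list against 20.3% of all tested genes.

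Together the 7 genes too rare for the test had 33 counts in wildtype and 156 in the labelled knockout. They gave 14, 13 and 6 counts in wildtype replicates 1 to 3 and 6, 45 and 105 in labelled knockout replicates 1 to 3. Wildtype replicate 3 and labelled knockout replicate 1 were thus the lowest, and the excess came from 2 of the 3 libraries labelled knockout. The summed level was 0.184 ± 0.0798 and 0.715 ± 0.722 CPM, a pooled ratio of 4.03 (counting interval 2.76 to 6.07). Without labelled knockout replicate 3 it was 1.95 (1.24 to 3.13). That library was the highest in 5 of the 7, and replicate 2 in the other 2. The counting intervals of single ratios lay above 1 in 5 of the 7 (Mcpt8, Prss34, Gata2, Epx and Ccr3). No share of similarly rare genes with such intervals was computed. Untested genes of the further lists below (the 3 cell types, their receptor and shared granule genes) had intervals on both sides of 1. Siglecf lay above 1, at 2.87 (1.43 to 6.24). Below 1 lay Ltc4s, at 0.404 (0.161 to 0.938), and Mcpt2, with 2, 0 and 6 counts in wildtype and 0 in each labelled knockout library. Of the untested progenitor genes, Hoxa9 at 4.20 (2.29 to 8.32) and Tal1 at 2.82 (1.36 to 6.41) lay above 1. The interval of Meis1, at 1.60 (0.845 to 3.14), included 1. Without labelled knockout replicate 3, Hoxa9 was at 3.60 (1.87 to 7.38) and Tal1 at 2.53 (1.13 to 6.05). With each library left out in turn, between 2 and 5 of the 7 intervals lay above 1, and Mcpt8 was the 1 gene among them in all 6 omissions. Prss34 was among them except without labelled knockout replicate 3. Ccr3 was not among them without labelled knockout replicate 2, wildtype replicate 2 or wildtype replicate 3. The counting intervals of the 7 genes leave out the spread between mice. In the labelled knockout chi-square per degree of freedom was 48.8 for Prss34, 12.7 for Mcpt8, 5.52 for Ccr3 and 5.19 for Fcer1a. It was 3.55 for Gata2, 2.78 for Epx and 1.44 for Ms4a2. In wildtype it was 4.32 for Ms4a2, 3.48 for Prss34, 3.28 for Ccr3 and 3.10 for Epx. Fcer1a, Gata2 and Mcpt8 were at 1.03, 0.642 and 0.466 there. Labelled knockout replicate 3 was also highest for 8 of 8 neutrophil genes and 5 of 9 macrophage genes, and replicate 1 was lowest for 7 of 9 macrophage genes. Dendritic cell and B cell genes had the same extremes: replicate 3 was highest for 6 of 8 and 5 of 6 genes, and replicate 1 lowest for 7 of 8 and 6 of 6. All genes of both lists were detected. The macrophage list, with 9 of 9 genes detected, summed to 94.9 to 130 CPM in wildtype and to 74.1, 124 and 238 CPM in labelled knockout replicates 1 to 3. The dendritic cell list summed to 21.6 to 24.3 CPM in wildtype and to 14.5, 33.2 and 53.4 CPM in labelled knockout replicates 1 to 3, and the B cell list to 41.9 to 50.2 CPM and to 28.5, 49.4 and 59.6 CPM. Of the other lists of cell types, replicate 3 was highest for 6 of 8 early thymocyte, 9 of 14 progenitor and 2 of 5 endothelial genes. It was highest for 1 of 8 thymocyte markers, 0 of 7 erythroid genes and 0 of 7 innate lymphoid genes. Replicate 1 was lowest for 2, 4, 1, 0, 4 and 1 genes of these lists, in that order. The shares of all tested genes that were highest in replicate 3 or lowest in replicate 1 were not computed. The counts of extremes for the 7 genes and the lists therefore stand without a background. The part of any of these cell types in the counts of the 7 genes was not tested.

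**Figure D4:**
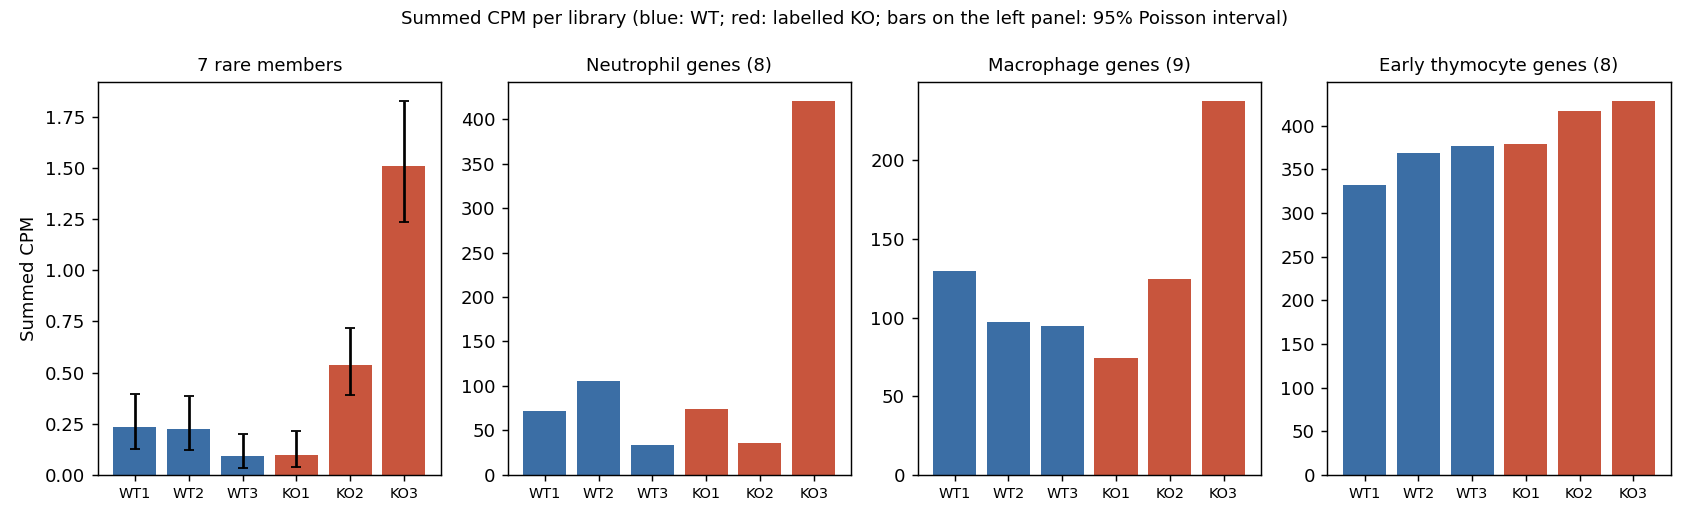
Summed CPM per library (vertical axes, each with its own range) of the 7 rare genes, 8 neutrophil genes, 9 macrophage genes and 8 early thymocyte genes, with wildtype in blue, labelled knockout in red and 95% Poisson intervals in the left panel. The 7 rare genes reach 1.51 CPM in KO3 and 0.0991 CPM in KO1, and the neutrophil genes reach 420 CPM in KO3.

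Other genes of the 3 cell types gave no call by edgeR with the low-count filter over all 6 libraries. Of 22 further mast cell genes, 8 were tested, 0 passed edgeR's adjusted threshold and 1 (Kit) had an unadjusted p under 0.05. Kit was called higher without the low-count filter and when both libraries numbered 1 were left out. DESeq2 gave an adjusted p to 3 of the 22 and called 0 of these 3. Their median log2 fold was 0.28, against 0.01 over all tested genes. The tryptases Tpsb2, Tpsab1 and Tpsg1, the chymase Cma2, the receptors Mrgprb1 and Mrgprb2, and Smpx had 0 counts in all 6 libraries. Tpsb2 and Tpsab1, tryptases that mature connective tissue mast cells store, were thus at 0 in libraries where Cpa3 had 191 to 763 counts. Strain and the treatment of reads with several mapping places are not stated. These counts of 0 are therefore not read as a trait of the cells. The 4 mast cell list genes of highest level per kilobase were Kit, Cited4, Slc18a2 and Ctsg. Slc18a2, the vesicular monoamine transporter, had 3.75 ± 0.469 and 3.26 ± 0.599 CPM (edgeR adjusted p = 0.690), and Cited4, a transcriptional coregulator, had 0.963 ± 0.132 and 1.26 ± 0.467 CPM (adjusted p = 0.609). Ctsg, cathepsin G, which neutrophils share, had 74.8% of its counts in labelled knockout replicate 3 (fold 5.77, edgeR adjusted p = 0.374).

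Of 14 further basophil genes, 10 were tested and 0 passed edgeR's adjusted threshold; 0 had an unadjusted p under 0.05, DESeq2 called 0 of the 3 to which it gave an adjusted p, and the list had a median log2 fold of 0.04. Cd69, Osm, Ifitm1 and Ccl4 had the highest levels per kilobase. These genes are shared with activated lymphocytes and other cells, and the activation marker Cd69 had 46.3 ± 8.0 and 38.7 ± 4.96 CPM (edgeR adjusted p = 0.418). Of 13 further eosinophil genes, 9 were tested and 0 passed edgeR's adjusted threshold; again 0 had an unadjusted p under 0.05, and DESeq2, which gave an adjusted p to 1 of them, called 0, with a median log2 fold of 0.35. Its most abundant genes per kilobase were Ear2, Retnlg, Cd101 and Gata1, of which Ear2, an eosinophil-associated ribonuclease with close relatives in the genome, had 1.61 ± 0.448 and 1.44 ± 0.764 CPM (edgeR adjusted p = 0.903). Retnlg, which neutrophils also make, had 59.8% of its counts in labelled knockout replicate 3. Siglecf, the surface lectin of eosinophils, named after its values were seen, had 1, 5 and 5 counts in wildtype and 6, 9 and 22 in the labelled knockout, too low to be tested. Its CPM did not overlap between genotypes, which held for 1 of 12 detected genes of this list and for 20.3% of all tested genes. Of the 14 basophil list genes 2 did not overlap, Il13 (higher, also named after its values were seen) and Ccl4 (lower in the labelled knockout), and of the 15 detected mast cell list genes 0.

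The ligands and receptor chains of the interleukin-3 family were read beside the 10 genes. Il3 had 0 counts in all 6 libraries. Il5 had 0 to 2 counts per library and Csf2, which encodes GM-CSF, had 4 to 15. Il5ra, the eosinophil receptor chain, had 0.579 ± 0.200 and 0.471 ± 0.0291 CPM (edgeR adjusted p = 0.742). Of the 4 tested genes of the ligand and receptor list, which holds Il3ra, Csf2ra, Csf2rb and Csf2rb2 among its 7, 0 passed edgeR's threshold, with 0 at an unadjusted p under 0.05 and 0 called by DESeq2. Csf2rb2, the second beta chain gene of the mouse, which serves interleukin-3 alone, had 2.75, 3.01 and 2.65 CPM in wildtype and 2.13, 4.19 and 8.68 CPM in the labelled knockout. As for Mcpt8, its order in the labelled knockout was replicate 3 above replicate 2 above replicate 1, and replicate 1 did not exceed wildtype (fold 1.79, edgeR adjusted p = 0.421). The shared beta chain gene Csf2rb had the same order, at 2.35, 6.15 and 10.7 CPM against 4.39, 4.79 and 5.06 CPM in wildtype. Csf2ra, Fcer1g (3.04, 6.79 and 10.2 CPM) and the macrophage, dendritic cell and B cell sums had this order too, and Il3ra did not. The order was therefore not particular to Csf2rb2. Without the low-count filter Csf2rb2 and Kit were the 2 genes called among the 57 with any count in these lists and a list of shared leukocyte granule genes. That last list, with 9 of 10 genes tested, had 0 called by edgeR, 0 called by DESeq2 among the 7 to which it gave an adjusted p, and 1 gene (Ctsd) at an unadjusted edgeR p under 0.05. Ctsd, Srgn and Fcer1g were among its most abundant genes per kilobase, and Srgn, the proteoglycan of granules, had 80.8 ± 6.77 and 82.1 ± 12.9 CPM (edgeR adjusted p = 0.949).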

How the data were processed

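RNA of thymocytes was isolated with a column kit and made into libraries with a stranded mRNA kit, per the labels' protocols. Reads were handled by the authors with STAR 2.5.4b and featureCounts on GRCm38, per the submitters' processing notes; which annotation release and strand setting were used, and how reads with several mapping places were treated, is not stated there. The table deposited by the authors has raw counts for each Ensembl gene, per the file headers and values, with 1 column per library matched by name. All 55536 identifiers matched GENCODE M21 (GRCm38). The miRNA models Mir7007 and Mir6949 overlap Cpa3 and Mcpt8 on the same strand, and no other of the 10 genes has an overlapping model. No gene within 1 Mb of a member had counts within 10% of it in every library.

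The genotypes were compared over all genes with edgeR 4.0.16 (R 4.3.3; filterByExpr, TMM, glmQLFit with robust = TRUE, glmQLFTest, no covariate, Benjamini-Hochberg threshold 0.05). For the 7 members left out by the filter, exact Poisson and Clopper-Pearson 95% intervals and exact permutation tests were computed (scipy 1.17.1). A count of 0 is taken to allow 3 counts, which lies below the upper end of its 95% Poisson interval. No molecular identifiers are recorded for the reads, so these intervals describe counting error alone. Alternatives were DESeq2 1.42.0, limma-voom (limma 3.58.1), other scalings and filters, a replicate block and the omission of each library; leaving out both libraries numbered 1, the levels per kilobase without labelled knockout replicate 3 or in wildtype alone, and the alternatives for the other gene lists were added after seeing the data. All members are named. Of other lists, the ligand and receptor genes and up to 4 genes of highest level per kilobase are named, with genes at 0 and genes a count turns on, and for Cpa3 and Hdc (mean of at least 0.5 CPM) the 3 genes of most similar profile; 1 gene that this rule would name is not reported here. Members and lists were chosen with earlier results of these data known. Each library is 1 mouse, so p-values measure the spread between mice.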

Additional observations from a re-analysis of the deposited data

How the results depend on the processing

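Over all genes, 17 passed edgeR's adjusted threshold. DESeq2 called 594 and edgeR without the low-count filter 840. Leaving out both libraries numbered 1, which were those high in Xist, gave 762 and was chosen after seeing the data. Leaving out each library in turn gave 8 to 29 calls. Of the 10 members, 0 passed in the main analysis, 1 (Cpa3) by DESeq2 and 2 (Cpa3 and Mcpt8) without the low-count filter, and 0 in each fit that left out 1 library. Of the other listed genes of the 3 cell types and their receptor, 0 passed in the main analysis and 0 when each library was left out, 2 (Csf2rb2 and Kit) without the low-count filter and 1 (Kit) without both libraries numbered 1. Cpa3 kept its direction in all 14 alternatives, with log2 folds of 0.78 to 1.23. Hdc and Prg2 reversed without labelled knockout replicate 3, to log2 folds of -0.30 and -0.36; over the libraries left out in turn their ranges reached 0.73 and 1.04. Without both libraries numbered 1 the log2 fold of Prg2 was 1.48 (edgeR adjusted p = 0.134; unadjusted p = 0.0270), against 0.49 in the main analysis. The pooled ratio of the 7 rare members was 1.95 to 5.41 when each library was left out and 4.03 with raw library totals. The causes of these differences were not tested.

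Same-numbered libraries did not deviate together: the correlations of their deviations from the group means over genes were -0.0978, 0.0677 and -0.1211, so the numbers are not taken as pairs. With the replicate block edgeR called 9 genes and 0 members. Depth limits Fcer1a, Ms4a2, Epx and Gata2, whose totals were 6 to 23 counts over 6 libraries.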
